A study of Mus musculus with 4 samples.

Results

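The genes described here are 10 members of the Wnt pathway known from mammary branching: the ligands Wnt4, Wnt5a, Wnt6, Wnt10b and Wnt11, the secreted modulators Sfrp1, Sfrp2 and Rspo1, and the nuclear factor Lef1 and feedback inhibitor Axin2. They were chosen by name, with earlier results of these data known, and are 10 of 17097 genes with a named probe set. Every probe set whose annotation gave exactly 1 of these symbols was taken, which made 14 of the 45037 probe sets tested. The genes Wnt4, Wnt5a, Wnt6 and Axin2 had a pair of probe sets each and the other 6 genes had 1. RNA came from whole inguinal mammary gland of mice at postnatal day 10. Affymetrix arrays were hybridized for 2 samples from mice lacking Mt2-mmp in all tissues, labelled Mt2-mmp(-/-), and 2 labelled Mt2-mmp(+/+), their wild-type littermates. All 4 were congenic on C57Bl/6J and untreated as far as the labels say. Mt2-mmp is the membrane-anchored matrix metalloproteinase encoded by Mmp15. The labels call the arrays biological replicates without saying whether an array held 1 mouse or several, so p-values rest on the spread between these arrays. The limma test combines that spread with the one over all probe sets (2 residual and 3.43 prior degrees of freedom).

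Wnt ligands are secreted lipid-modified proteins that bind Frizzled receptors. In the canonical branch, with the coreceptors Lrp5 and Lrp6, this stabilises beta-catenin, which then joins Lef1 and related Tcf factors on DNA and switches on targets such as Axin2, while R-spondins strengthen and Sfrp proteins dampen the signal at the cell surface. In the mammary gland Wnt10b and Lef1 are known from the embryonic bud, Wnt4 and Rspo1 from luminal cells and side branching, and Wnt5a as a noncanonical ligand that restrains duct growth.

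The DNA before 2 start sites is shown to set the members' canonical readout beside a known Tcf/Lef word: Axin2 because it is the standard target of the pathway, and Wnt11 because it was the 1 gene of the 8 members with a window that held the word. The sequences are RefSeq windows of assembly GRCm38.p6 on the plus strand, 250 bases ending before the start site, printed 5′ to 3′. The word searched on both strands was CTTTGAT, which cannot overlap itself, and a match is in capitals. The window of Axin2 is chr11:108920099-108920348 and that of Wnt11, the first of its start sites listed, is chr7:98834862-98835111.
Axin2: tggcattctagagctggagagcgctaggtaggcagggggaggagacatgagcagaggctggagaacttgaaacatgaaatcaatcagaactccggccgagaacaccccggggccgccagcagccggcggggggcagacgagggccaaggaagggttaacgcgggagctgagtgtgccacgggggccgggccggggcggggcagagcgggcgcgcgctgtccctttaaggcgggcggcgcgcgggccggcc
Wnt11: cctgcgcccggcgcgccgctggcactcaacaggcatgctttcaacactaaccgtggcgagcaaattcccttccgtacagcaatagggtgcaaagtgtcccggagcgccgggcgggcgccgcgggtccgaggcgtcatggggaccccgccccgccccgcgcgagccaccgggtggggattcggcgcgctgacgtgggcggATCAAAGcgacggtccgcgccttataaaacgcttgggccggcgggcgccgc
Of 12 start sites listed for 8 of the members 1 held the word, read on the minus strand, and 3.21% of all 32851 start sites did. A match describes the letters only, and no match says only that these letters are not in this window.

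No member passed the test between genotypes. All 14 probe sets missed the threshold of an adjusted p of 0.05 (limma over all probe sets, Benjamini-Hochberg, lowest adjusted p = 0.704), where 0.00444% of all probe sets passed. At an unadjusted p under 0.05 there were 2 of 14, Sfrp2 on the higher and Rspo1 on the lower side, against 6.65% of all probe sets. The knockout and wild-type values did not overlap in 6 of the 14, against 36.4% of all probe sets. Of these 6, 4 lay higher in knockouts, against 17.8% of all probe sets, and 2 lay lower, against 18.6%. The median log2 fold change of the 14, knockout minus wild type, was 0.033, beside -0.001 over all probe sets, and the median size without sign was 0.107 beside 0.067. The unadjusted 95% intervals reached between 0.166 and 0.439 on either side, so the data did not resolve smaller differences. Larger differences could miss the adjusted threshold too, as Rspo1 did at -0.38 and, outside the members, Ucp1 at 1.64. The lowest bound of any member was -0.62 and the highest 0.48.

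The values are RMA log2 values made by the authors, and a value is compared only with the same probe set on other arrays. The 23 nonspecific control probe sets had a 95th percentile of 4.49 to 4.56 on the 4 arrays, which is used here as the edge of background. On all 4 arrays 8 member probe sets of 6 genes lay above 4.56: those of Wnt4 and Wnt5a, and Wnt11, Sfrp1, Sfrp2 and the brighter Axin2 probe set. Both Wnt6 probe sets, Wnt10b, Lef1 and the dimmer Axin2 probe set lay at or under 4.49 on every array, and Rspo1 lay above the edge on 2 arrays. Of the 8 probe sets above the edge on all arrays, the genotypes did not overlap in 3, against 36.4% of all probe sets. All 3 lay higher in knockouts, against 17.8%, and the share among all probe sets above the edge was not computed. Axin2 on 1436845_PM_at was among them only by knockout 2 at 6.585 against wild type 2 at 6.579. RMA compresses differences near background, so the values of the dim probe sets limit a change less than their intervals state. Other probe sets of the same genes may be among the 15588 whose gene was not named in the annotation used here.

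**Figure D1:**
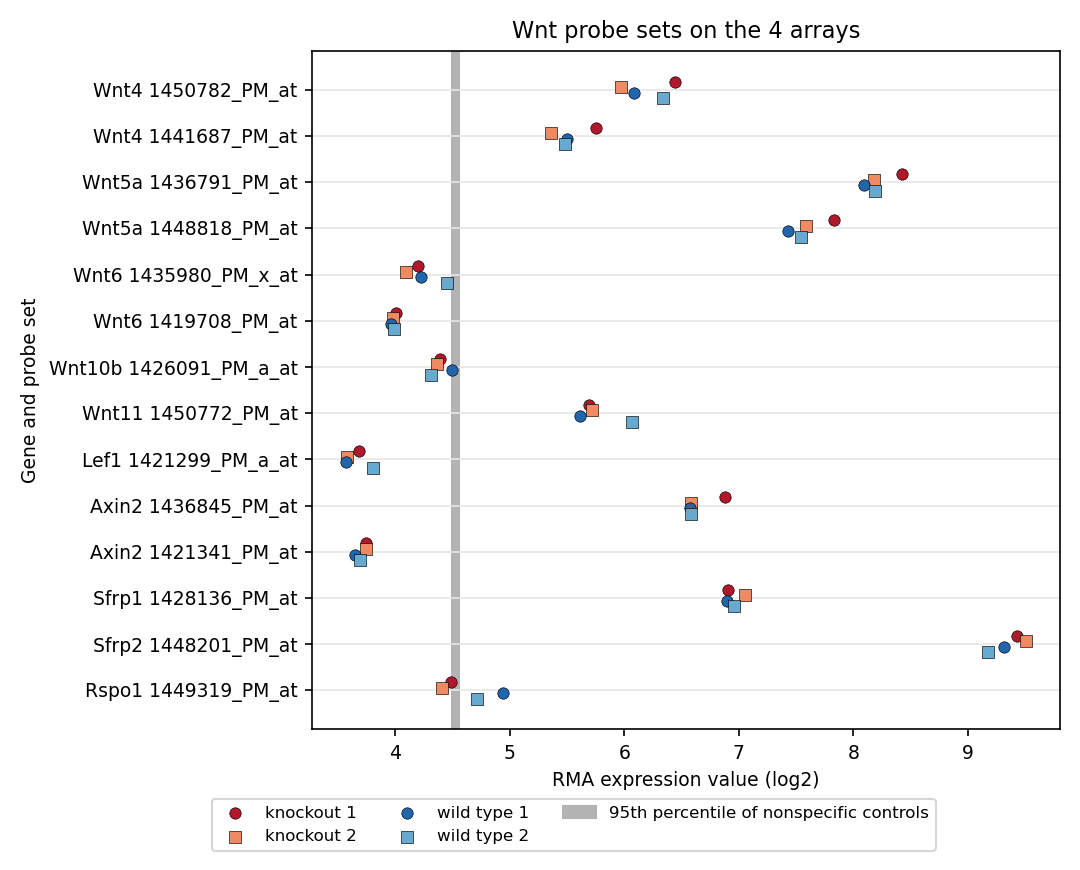
RMA log2 value (horizontal axis) of each of the 14 Wnt probe sets (rows) on the 2 knockout arrays (red and orange) and the 2 wild-type arrays (blue); the grey band is the 95th percentile of nonspecific controls, 4.49 to 4.56. The genotypes overlap in all but 6 rows. In Rspo1 both knockout arrays, at 4.49 and 4.40, lie left of the wild-type arrays at 4.94 and 4.71, and levels are not comparable between rows.

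Among the ligands, Wnt5a had values of 8.43 and 8.18 on knockout arrays 1 and 2 and 8.09 and 8.18 on wild-type arrays 1 and 2 on probe set 1436791_PM_at. On its other probe set, 1448818_PM_at, Wnt5a had 7.83 and 7.59 on knockout arrays 1 and 2 against 7.43 and 7.55 on wild-type arrays 1 and 2. Knockout 1 was the highest array on both probe sets, and the genotypes overlapped on the first and were separate on the second by a narrow gap. The log2 fold changes of Wnt5a were 0.17 (SE 0.103, limma adjusted p = 0.817) and 0.22 (SE 0.105, limma adjusted p = 0.777), with n = 2 arrays per genotype here and throughout. They were 0.04 and 0.10 without knockout 1, and 0.29 and 0.34 without knockout 2.

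Wnt4, a ligand of luminal cells downstream of progesterone in the adult gland, had values of 6.44 and 5.97 on knockout arrays 1 and 2 and 6.08 and 6.34 on wild-type arrays 1 and 2 on probe set 1450782_PM_at. Its other probe set, 1441687_PM_at, read 5.75 and 5.36 on knockout arrays 1 and 2 and 5.50 and 5.48 on wild-type arrays 1 and 2. The knockout arrays lay on either side of the wild-type arrays on both. The mean of Wnt4 on 1450782_PM_at was 6.21 ± 0.332 (SD, n = 2) in knockouts, and 6.21 ± 0.181 in wild type. The 95% interval of its log2 fold change ran from -0.44 to 0.44 there and from -0.28 to 0.40 on 1441687_PM_at. The sign of the Wnt4 difference turned with the array left out: it ran from -0.23 without knockout 1 to 0.23 without knockout 2 on 1450782_PM_at, and from -0.14 to 0.26 on 1441687_PM_at.

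Wnt11, a ligand known for signalling outside the canonical branch, had values of 5.69 and 5.72 on knockout arrays 1 and 2 against 5.61 and 6.07 on wild-type arrays 1 and 2. A single array, wild type 2, stood above the other three, and the genotypes overlapped. The log2 fold change of Wnt11 was -0.13 (SE 0.154, limma adjusted p = 0.919), and it was 0.10 without wild type 2 and -0.36 without wild type 1 (limma adjusted p = 0.475).

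Wnt6 and Wnt10b, ligands made by epithelium and known from the early bud and skin appendages, stayed near background. Wnt10b had 4.39 and 4.36 on knockout arrays 1 and 2 and 4.49 and 4.31 on wild-type arrays 1 and 2. Wnt6 had 4.20 and 4.10 on knockout arrays 1 and 2 against 4.22 and 4.45 on wild-type arrays 1 and 2 on probe set 1435980_PM_x_at. On the other Wnt6 probe set, 1419708_PM_at, all 4 arrays lay between 3.97 and 4.01. The Wnt10b arrays overlapped, and the Wnt6 arrays were separate on 1 of its probe sets, where wild type 2 was highest. The log2 fold changes were -0.03 (SE 0.086) for Wnt10b, -0.19 (SE 0.100) for Wnt6 on 1435980_PM_x_at and 0.02 (SE 0.066) on 1419708_PM_at. The difference of Wnt6 on 1435980_PM_x_at was -0.08 without wild type 2 and -0.31 without wild type 1. That of Wnt10b was 0.06 without wild type 1 and -0.12 without wild type 2.

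Among the secreted modulators, Rspo1 had the largest difference of all members in the fit of all 4 arrays, on a probe set at the edge of background. Rspo1, an R-spondin that binds Lgr receptors and strengthens Wnt signalling, had values of 4.49 and 4.40 on knockout arrays 1 and 2 against 4.94 and 4.71 on wild-type arrays 1 and 2. Both knockout arrays lay below both wild-type arrays and under the background edge of 4.56. The mean was 4.45 ± 0.058 (SD, n = 2) in knockouts, and 4.82 ± 0.159 in wild type, a log2 fold change of -0.38 (SE 0.098, 95% interval -0.62 to -0.13). This did not pass over all probe sets (limma unadjusted p = 0.00999, adjusted p = 0.704). With 1 array left out the difference of Rspo1 ran from -0.49, without wild type 2, to -0.27, without wild type 1. In the latter fit Wnt11 (-0.36), Wnt6 on 1435980_PM_x_at (-0.31) and Sfrp2 (0.29) had larger differences than Rspo1.

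Most marker genes of mammary epithelium had fold changes below 0, and none passed the test. Of 16 measured luminal marker genes, each by its brightest probe set, 15 were below 0 (median -0.20). At an unadjusted p under 0.05 by limma there were 5 of the 16 luminal and 3 of the 12 basal genes, beside 6.65% of all probe sets. The summed luminal level was 11.94 and 11.88 (log2) on knockout arrays 1 and 2 against 12.19 and 12.09 on wild-type arrays 1 and 2. Krt8, a luminal keratin, had values of 9.07 and 9.01 on knockout arrays 1 and 2 against 9.47 and 9.27 on wild-type arrays 1 and 2. All 12 measured basal marker genes were below 0 (median -0.17, 0 after adjustment). Their summed levels were 12.97 and 13.00 in the knockout arrays and 13.12 and 13.01 in wild type. The keratin Krt5 was highest on knockout 1, at 7.49, and wild type 2, at 7.69, the arrays with high hair keratins described below. Its genotypes overlapped, with a log2 fold change of -0.19 (SE 0.214). Krt14 lay lower on both knockout arrays than on both wild-type arrays (-0.27, SE 0.075). The part of hair follicle RNA in the basal values was not tested. Some marker lists of other cell types leaned to 1 side as well. All 9 measured macrophage genes were below 0 (median -0.09, 3 at an unadjusted p under 0.05 by limma, 0 after adjustment). Of 10 skeletal muscle genes 9 were above 0 (median 0.16, 0 at that unadjusted p), and epidermis had 6 on either side. The part of the epithelial markers in the Rspo1 difference was not tested. In bulk tissue fewer cells of a type and less RNA per cell cannot be told apart.

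Sfrp2, a secreted Wnt antagonist made by mesenchyme, had values of 9.43 and 9.50 on knockout arrays 1 and 2 against 9.32 and 9.17 on wild-type arrays 1 and 2. Both knockout arrays lay above both wild-type arrays. The log2 fold change of Sfrp2 was 0.22 (SE 0.082, 95% interval 0.02 to 0.43), or 1.17-fold, which did not pass (limma unadjusted p = 0.0391, adjusted p = 0.746). It ran from 0.15 to 0.29 with 1 array left out. Of 12 fibroblast marker genes 9 were above 0 and 3 below (median 0.059). At an unadjusted p under 0.05 by limma there was 1, beside 6.65% of all probe sets, and 0 passed after adjustment. Pdgfra, the list's defining marker, was among those below 0 (-0.18, SE 0.099). The summed level of the list was 15.25 and 15.30 in the knockout arrays and 15.24 and 15.14 in wild type. The part of fibroblast markers in the Sfrp2 difference was not tested.

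Sfrp1, a related antagonist, differed less than its arrays did among themselves. Its values were 6.91 and 7.05 on knockout arrays 1 and 2 and 6.90 and 6.96 on wild-type arrays 1 and 2. The arrays overlapped, with a log2 fold change of 0.05 (SE 0.080, 95% interval -0.15 to 0.25, limma adjusted p = 0.954), and it was -0.02 without knockout 2 and 0.12 without knockout 1. Sfrp1 is the only member on chromosome 8, which also carries the targeted gene Mmp15, 454 measured genes away. No probe set was named Mmp15, so the targeted gene is not analysed here and could not serve to check which arrays are knockouts.

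Axin2, a scaffold of the beta-catenin destruction complex that Wnt signalling induces as negative feedback, read higher on 1 knockout array. On probe set 1436845_PM_at the values of Axin2 were 6.88 and 6.58 on knockout arrays 1 and 2 and 6.58 and 6.58 on wild-type arrays 1 and 2. Knockout 1 stood alone, and the rest lay within 0.01 of each other. The genotypes counted as separate there only because knockout 2, at 6.585, lay just above wild type 2, at 6.579. The log2 fold change of Axin2 was 0.15 (SE 0.111, 95% interval -0.12 to 0.43, limma adjusted p = 0.838), and it was 0.007 without knockout 1 and 0.30 without knockout 2. The dimmer Axin2 probe set, 1421341_PM_at, had 3.75 and 3.75 on knockout arrays 1 and 2 against 3.64 and 3.69 on wild-type arrays 1 and 2, within background, with a fold change of 0.08 (SE 0.067).

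Lef1, the factor that carries beta-catenin to DNA, had values of 3.69 and 3.57 on knockout arrays 1 and 2 and 3.57 and 3.80 on wild-type arrays 1 and 2. All 4 lay within background, and the genotypes overlapped. The log2 fold change of Lef1 was -0.06 (SE 0.102, 95% interval -0.31 to 0.20, limma adjusted p = 0.963), and it was 0.06 without wild type 2 and -0.17 without wild type 1. These values do not show that Lef1 was absent from the tissue.

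**Figure D2:**
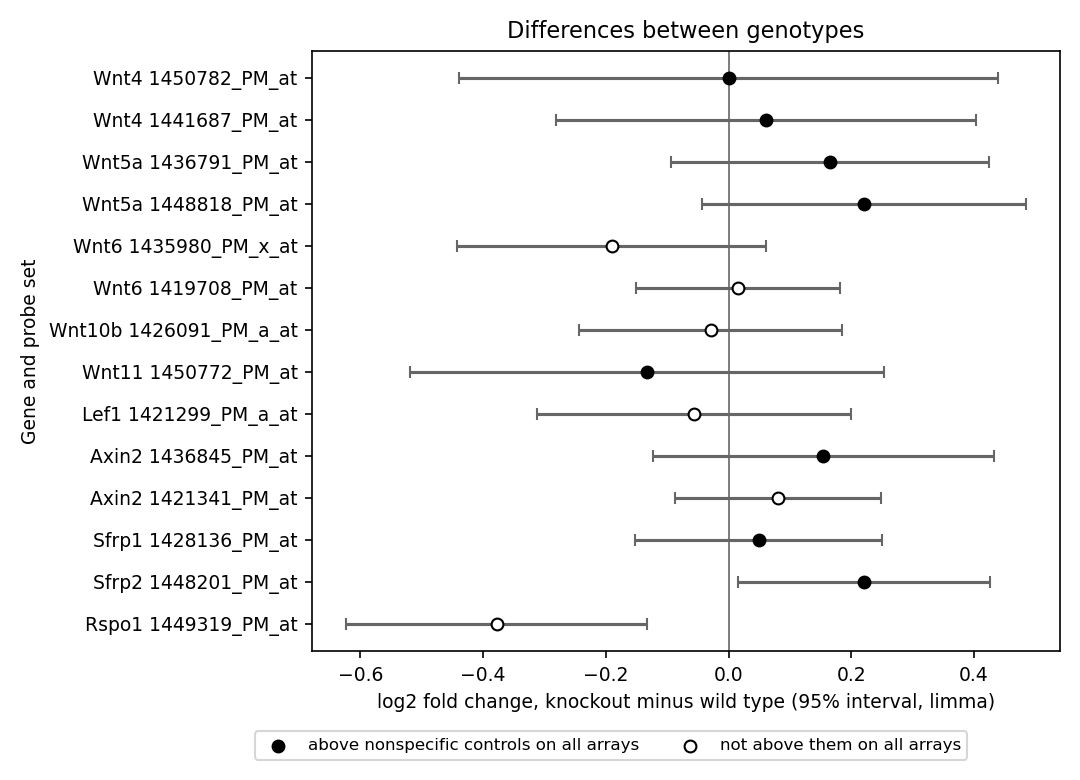
log2 fold change, knockout minus wild type (horizontal axis), of each of the 14 probe sets (rows), with 95% intervals from limma on 2 arrays per genotype; filled points are probe sets above the nonspecific controls on all arrays. Only the unadjusted intervals of Rspo1, -0.62 to -0.13, and Sfrp2, 0.02 to 0.43, leave out 0.

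Knockout 1 was the highest array in 7 of the 14 probe sets, those of Wnt4, Wnt5a and Axin2 and 1 of Wnt6, and wild type 2 was the highest in 3. The share over all probe sets was not computed, so these counts are a description only. The dimmer Axin2 probe set, at 3.75 on both knockout arrays, and Wnt6 on 1419708_PM_at, with a range of 0.04, lay within background. On the brighter probe sets of Wnt4, Wnt5a and Axin2 knockout 1 stood 0.23, 0.21 and 0.22 above the mean of the 4 arrays. Knockout 2, of the same genotype, stood 0.23, 0.04 and 0.07 below it.

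The arrays also differed in RNA of hair keratin genes. Hair keratins and their partners were high in knockout 1 and wild type 2 and low in the other two arrays. Krt25, a keratin of the inner root sheath, had values of 10.44 and 10.47 there, against 3.70 in knockout 2 and 3.99 in wild type 1. The summed level of 17 measured hair follicle genes was 12.59 and 8.83 on knockout arrays 1 and 2 and 8.80 and 12.38 on wild-type arrays 1 and 2. A list of 10 dermal papilla genes, 4 of them within background on every array, did not share this contrast. Its summed level was 9.40 and 9.38 on knockout arrays 1 and 2 and 9.44 and 9.40 on wild-type arrays 1 and 2. No hair follicle gene passed the test between genotypes (0 at an unadjusted p under 0.05 by limma).

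The members moved little beside this contrast. The widest range of any member over the 4 arrays was 0.53, in Rspo1, against 6.78 for Krt25. In 4 of the 14 probe sets knockout 1 and wild type 2 lay above both other arrays, as in the hair genes, and this order held in 14.9% of all probe sets. These 4 were Wnt4 on 1450782_PM_at, Wnt5a on 1436791_PM_at, Wnt6 on 1419708_PM_at and Lef1. The Wnt6 and Lef1 probe sets lay within background on all arrays. Wnt5a had this order only because wild type 2, at 8.184, lay just above knockout 2, at 8.179. Wnt11 was high in wild type 2 alone, and Axin2 on 1436845_PM_at in knockout 1 alone. The part of hair follicle RNA in these values was not tested.

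**Figure D3:**
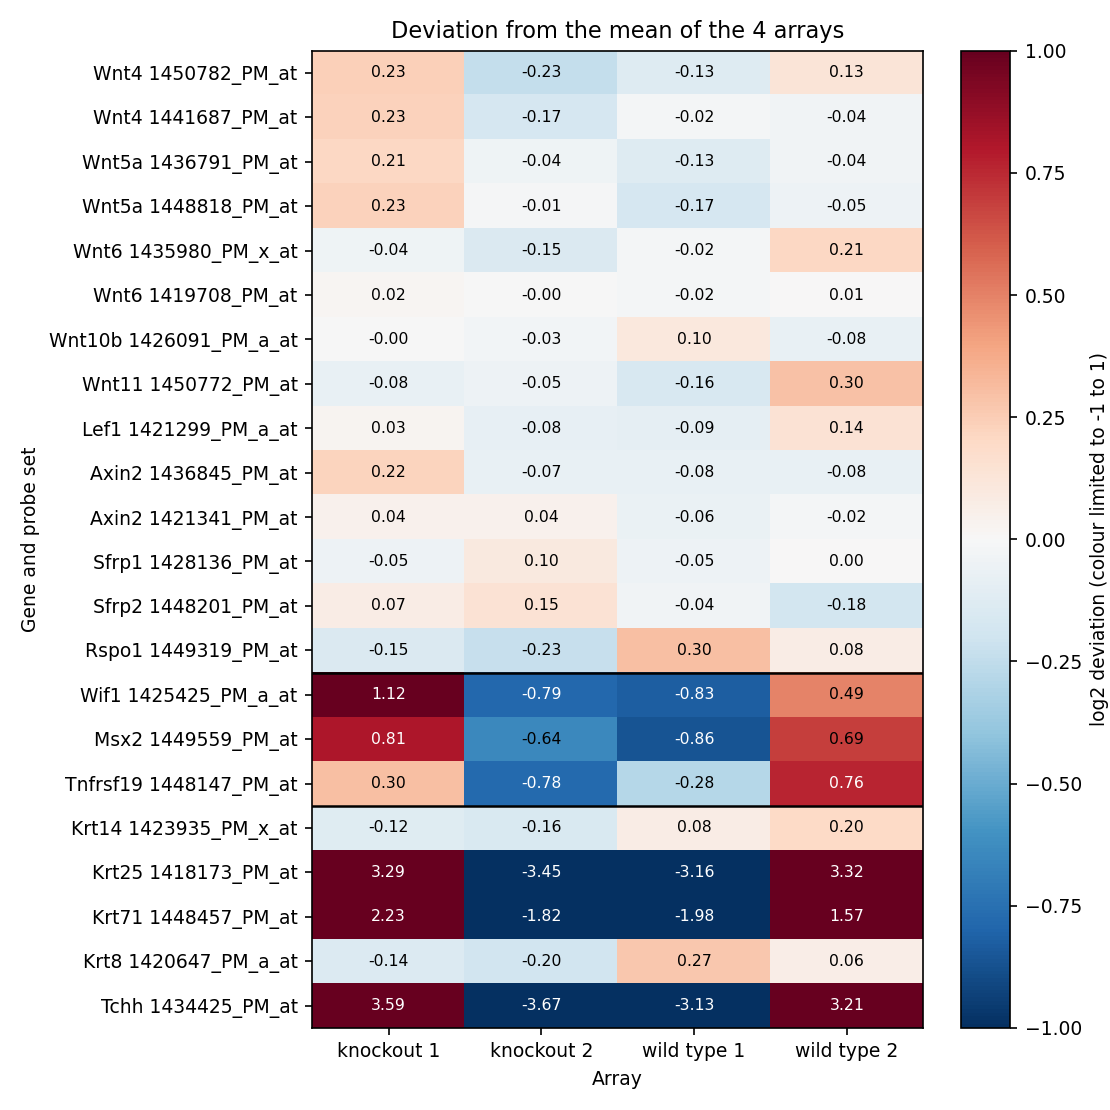
Deviation of each array (columns) from the probe set's mean over the 4 arrays, in log2 units printed in each cell, for the 14 Wnt probe sets (top block), for 3 pathway genes of widest range (middle) and for keratin and hair markers (bottom); colour is limited to -1 to 1. Hair markers Krt25, Krt71 and Tchh and the pathway genes Wif1 and Msx2 are high in knockout 1 and wild type 2, and the member probe sets deviate by up to 0.30.

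The probe set with the array pattern most like that of a member was looked for with Wnt4 on 1450782_PM_at, which has the widest range, 0.47, among the members brighter than the median probe set. Likeness was the root mean square difference of the centred log2 values over the 4 arrays, among 28898 probe sets with 1 symbol. The nearest 5 genes were Mrpl38 (0.009), a mitochondrial ribosomal protein gene, Ap1m2 (0.029), an epithelial clathrin adaptor subunit, Ptpn13 (0.031), a tyrosine phosphatase, Gabrp (0.033), a GABA receptor subunit, and Ears2 (0.033), a mitochondrial tRNA synthetase. With 4 arrays and this many probe sets such a ranking is a description only.

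In the rest of the pathway no probe set passed the test either. Of 90 other Wnt pathway genes listed, 86 had a probe set, 161 in all, and 0 of the 161 passed (limma, lowest adjusted p = 0.663). At an unadjusted p under 0.05 there were 7 on the higher side, against 3.48% of all probe sets, and 2 on the lower, against 3.17%. The median log2 fold change of the 161 was -0.009. By role, the unadjusted counts were 0 of 19 probe sets of other ligands, 2 of 34 of receptors and coreceptors, 1 of 23 of other secreted modulators, 4 of 47 of transduction genes and 2 of 38 of feedback and target genes. The list medians lay between -0.033, for the secreted modulators, and 0.0003, for transduction.

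**Figure D4:**
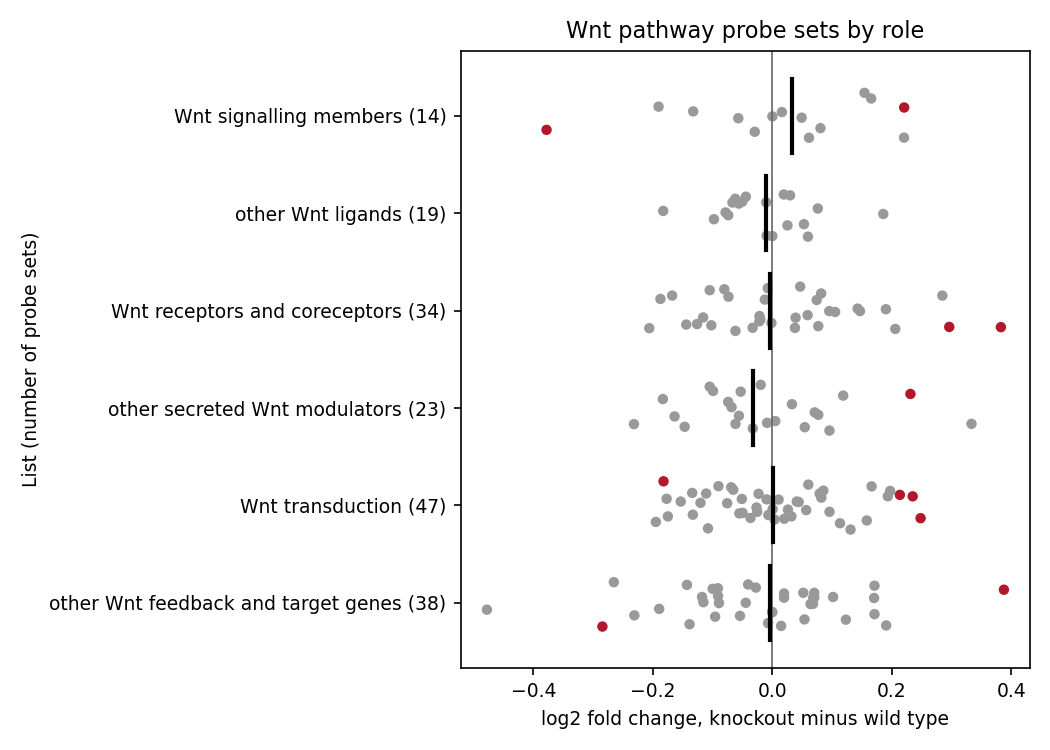
log2 fold change, knockout minus wild type (horizontal axis), of each probe set of the 10 members and of 5 lists of other Wnt pathway genes (rows, scattered vertically for visibility); black bars are medians and red points have an unadjusted p under 0.05 by limma. All medians lie between -0.033 and 0.033, and no point passed after adjustment.

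The 3 genes of smallest p on the higher side were the receptors Fzd4 and Ror2 and the feedback gene Nkd1. Fzd4, a Frizzled receptor that also serves the vascular ligand norrin, had 8.88 and 9.04 on knockout arrays 1 and 2 against 8.57 and 8.58 on wild-type arrays 1 and 2. Its log2 fold change was 0.38 (SE 0.082, limma adjusted p = 0.697), and 0.15 on a dimmer probe set that lay within background on all arrays. Of 10 endothelial marker genes 9 were above 0 (median 0.16, 1 at an unadjusted p under 0.05 by limma, 0 after adjustment), with summed levels of 12.83 and 13.10 in the knockout arrays and of 12.81 and 12.78 in wild type, and their part in the Fzd4 difference was not tested. Ror2, a receptor tyrosine kinase that binds Wnt5a, had 6.40 and 6.31 on knockout arrays 1 and 2 against 6.00 and 6.11 on wild-type arrays 1 and 2. Both knockout arrays of Fzd4 and Ror2 lay above both wild-type arrays, and the fold change of Ror2 was 0.30 (SE 0.078, limma adjusted p = 0.708).

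Nkd1, a Dishevelled-binding feedback inhibitor that Wnt signalling induces, had 6.83 and 6.78 on knockout arrays 1 and 2 against 6.40 and 6.43 on wild-type arrays 1 and 2. The groups were separate by more than the spread within either, and the log2 fold change was 0.39 (SE 0.068, limma adjusted p = 0.663). The other 3 probe sets of Nkd1 had fold changes of 0.05, 0.07 and 0.07, and the genotypes overlapped on each. The remaining genes of smallest p on the higher side were the antagonist Sfrp5 (0.23), the corepressor Tle3 (0.24) and the kinase Gsk3b (0.25), none past the threshold. The other probe set of Sfrp5 was at 0.005 and the other 3 of Gsk3b lay between -0.07 and -0.007, while the 3 of Tle3 lay between 0.20 and 0.24.

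On the lower side, Tbx3, a T-box factor needed for the mammary bud, had 7.42 and 7.39 on knockout arrays 1 and 2 against 7.71 and 7.68 on wild-type arrays 1 and 2. The genotypes were separate, with a log2 fold change of -0.28 (SE 0.066, limma adjusted p = 0.704), and its 3 probe sets ran from -0.28 to -0.09. The value of -0.09 came from 1439567_PM_at, which lay within background. The others of smallest p were the beta-catenin coactivator Bcl9 (-0.18), the receptor Tnfrsf19 (-0.23, on a probe set within background), the nuclear factor Tcf7l2 (-0.20), the R-spondin receptor Lgr4 (-0.17) and the Wnt deacylase Notum (-0.16), with limma adjusted p of 0.749 to 0.770. All 4 probe sets of Tcf7l2 lay below 0, from -0.20 to -0.12, though 1426639_PM_a_at lay within background. Bcl9 reached 0.0003 on its other probe set.

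The widest ranges in the pathway belonged to genes whose higher values lay on the arrays with high hair keratins. Wif1, a secreted Wnt inhibitor, had 5.79 and 3.89 on knockout arrays 1 and 2 and 3.85 and 5.17 on wild-type arrays 1 and 2. Msx2, a homeobox gene that is also on the hair follicle list, had 6.93 and 5.48 on knockout arrays 1 and 2 and 5.25 and 6.81 on wild-type arrays 1 and 2. Tnfrsf19 on probe set 1448147_PM_at had 6.26 and 5.18 on knockout arrays 1 and 2 and 5.67 and 6.72 on wild-type arrays 1 and 2. In all 3 the higher values were those of knockout 1 and wild type 2, and the genotypes overlapped. Their log2 fold changes were 0.33 (SE 0.707), 0.17 (SE 0.649) and -0.48 (SE 0.461), all within that spread.

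Over all probe sets 2 passed, both lower in knockouts and named after their values were seen: Gadd45gip1 (-1.51) and 1 probe set of Prdx2 (-2.83). The tissue markers were present, with Adipoq of adipocytes between 13.14 and 13.26 and Krt14 of basal cells between 7.87 and 8.22. Another gene of the adipocyte list, Ucp1, had 11.73 and 11.35 on knockout arrays against 10.28 and 9.53 on wild-type arrays. Its log2 fold change was 1.64 (SE 0.263, limma adjusted p = 0.653). Of 10 measured adipocyte marker genes 7 were above 0 and 3 below (median 0.063). At an unadjusted p under 0.05 by limma there were 3, beside 6.65% of all probe sets, and 0 passed after adjustment. With 2 arrays on each side the smallest p of an exact permutation test is 0.333, and every p-value printed therefore comes from limma's model of the spread.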

How the data were processed

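Total RNA (200 ng per array, per the labels' protocols) of 4 samples was labelled with biotin by a 3′ IVT kit. The authors used RMA from affy, per the submitters' processing notes, and deposited log2 values for each probe set. Neither a version nor a setting was given in the sources used here. RMA forces the arrays to 1 distribution, which would hide a shift common to most genes. Array medians ran from 5.20 to 5.21.

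Of 45141 probe sets 104 array controls were left out, and 45037 were tested. Symbols came from GEO's platform annotation: 28898 probe sets had 1, 551 several and 15588 none listed; all 10 members matched RefSeq by gene ID. Both genotypes entered a fit in limma 3.58.1 (R 4.3.3; lmFit, then eBayes), two-sided, no covariate, Benjamini-Hochberg over all probe sets, threshold 0.05. The median SE of a log2 fold change was 0.081; the number of arrays limits the precision. Summed marker levels are log2 of summed linear values over each gene's brightest probe set. Other pathway genes were named by smallest unadjusted p, up to 6 in each direction. Genes of widest range were picked after their values were seen, as was the background edge. The members and lists were chosen with earlier results of these data known.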

Additional observations from a re-analysis of the deposited data

How the results depend on the processing

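No member probe set and no other Wnt pathway probe set passed under any alternative run: quantile normalization, median centring, brighter probe sets only, 1 value per gene (its brightest probe set, or their mean), a trend with intensity, robust variances, the replicate block, the crossed pairing and each array left out (lowest member adjusted p 0.475 by limma). The trend, robust variances, both blocks and both choices of probe sets leave a probe set's fold change as it is. Of the settings with all arrays that can move it, quantile normalization and median centring turned the sign of Wnt4 on 1450782_PM_at, from 0.00007 to -0.00055 and -0.0058, and of no other member, and the mean per gene had the sign of each gene's brightest probe set. With an array left out 7 of 56 member values changed sign, in the ranges -0.23 to 0.23 for Wnt4 on 1450782_PM_at, -0.14 to 0.26 for Wnt4 on 1441687_PM_at, -0.12 to 0.061 for Wnt10b, -0.36 to 0.10 for Wnt11, -0.17 to 0.059 for Lef1 and -0.023 to 0.12 for Sfrp1. The member median was 0.108 with brighter probe sets only (8 of the 14), -0.015 with the brightest probe set per gene and -0.019 to 0.087 with an array left out. The count over all probe sets was 5 with quantile normalization, median centring, brighter probe sets, the trend and robust variances, 1 with the brightest and 0 with the mean of probe sets, and 0 to 5 with an array left out, against 2; the cause was not tested. The replicate block left 0 calls over all probe sets by limma, with 3131 at an unadjusted p under 0.05, and changed no member's call. By that unadjusted count it left 1 of the 14 members, Rspo1, without Sfrp2. With 2 numbered pairs, same-numbered arrays deviated oppositely (r = -0.29 across probe sets, which are not independent replicates). A crossed pairing, knockout 1 with wild type 2, chosen after seeing the data, gave 0 calls and 2558 at an unadjusted p under 0.05. The latter held 3 of the 14 members: Rspo1, Sfrp2 and Wnt5a on 1448818_PM_at. With 1 array left in a genotype, it is assumed to vary like the other group.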

Other observations

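Sfrp1 was also measured by 3 probe sets that the annotation gives to both Serinc3 and Sfrp1, outside the members above. On 1448395_PM_at all arrays lay between 6.09 and 6.14, and the log2 fold changes were 0.07 (SE 0.069) on 1416594_PM_at, 0.008 (SE 0.068) on 1448395_PM_at and 0.13 (SE 0.131) on 1460187_PM_at. None passed (limma adjusted p of 0.902 to 1.000).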
